A study of Mus musculus with 6 samples.

Results

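The transcripts Sel1l3, Mybpc3, Cbln4, 3110035E14Rik, AF529169, Etd, Mafa and Pnmt, 8 in all, were taken from 42747 rows of the count table because their level was far lower in the testes labelled cKO than in those labelled WT. They were matched by gene name, 1 row each, and all 8 were among the 18383 genes that passed edgeR's filter on low counts. No fold was set as a limit when they were picked, and because they were picked on this contrast their falls are given as a description, without a test. Polyadenylated RNA of whole mouse testes at E16.5, an embryonic stage, was sequenced in 6 libraries, each from a separate mouse, 3 cKO and 3 WT. The series title names the kinase CK1α (gene Csnk1a1) in Sertoli cells, which support the germ cells inside the testis cords, and cKO was taken to mean its conditional knockout. The Cre driver, the deleted part of the gene and anything on the WT mice beyond that label are not stated in the labels.

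The 8 genes have little in common by known function. Cbln4 encodes a secreted synapse organiser of the cerebellin family, Pnmt the enzyme that turns noradrenaline into adrenaline in the adrenal medulla, and Mafa a transcription factor that activates the insulin gene in pancreatic beta cells. Mybpc3 encodes the cardiac form of myosin-binding protein C, a part of the thick filament, and Sel1l3 a membrane protein with SEL1-like repeats, which its relative Sel1l uses in the disposal of misfolded proteins from the endoplasmic reticulum. Etd is short for embryonic testis differentiation. 3110035E14Rik is listed by RefSeq as a synonym of Vxn (vexin), and AF529169 carries a clone-style name that was not matched to another symbol. All 8 have the biotype protein_coding, as did 83.0% of the tested genes.

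Library totals ran from 15092619 to 17431546 counts. Csnk1a1 stood at 371, 396 and 348 CPM (counts relative to the scaled total of the library) in WT libraries 1, 2 and 3 and at 396, 405 and 377 CPM in cKO libraries 1, 2 and 3. Its log2 fold change of 0.08 (SE 0.117, edgeR adjusted p = 0.798) does not check the labels, since it comes from all cells of the organ and all of the gene. Of 18383 tested genes, 1.84% were lower and 1.5% higher in cKO at an edgeR adjusted p under 0.05. Of 20 Sertoli cell markers 16 were lower and none was higher. Those not called were Gata4 (439 CPM in WT and 314 CPM in cKO), Nr5a1 (233 and 241), Wt1 (171 and 200) and Rhox5 (6.56 and 7.06). The groups did not overlap in Gata4, lower (edgeR adjusted p = 0.0579), and in Wt1, higher (edgeR adjusted p = 0.370). The summed level of the 20 ran from 3704 to 4763 CPM in WT and from 1590 to 2121 CPM in cKO, with Clu and Amh holding the largest shares in WT. None of the 20 was at 0. The 6 fetal Leydig cell markers held no called gene by edgeR (4 higher and 0 lower with unadjusted p under 0.05; 2 higher by DESeq2 and 1 by limma-voom). The 8 tested germ cell markers held none by edgeR either (2 lower and 0 higher with unadjusted p under 0.05; 1 lower by DESeq2 and 0 by limma-voom). In whole testes, fewer cells of a type and less RNA per cell cannot be told apart.

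Promoter sequences were at hand for 3 of the 8 genes and are shown because these genes fell together. They are the 250 bases before the gene start in RefSeq, build GRCm38.p6, at chr2:91117894-91118143 (plus strand) for Mybpc3, chr2:172043467-172043716 (minus strand) for Cbln4 and chrX:53434668-53434917 (plus strand) for Etd. These positions belong to that build and not to the one of the count table. Letters of 5 motifs were searched on both strands, AACAAT and ACAAAG for SOX factors, AAGGTCA for NR5A1, AGATAA for GATA factors and ATCAAAG for TCF/LEF factors. Capitals mark each match.
Mybpc3: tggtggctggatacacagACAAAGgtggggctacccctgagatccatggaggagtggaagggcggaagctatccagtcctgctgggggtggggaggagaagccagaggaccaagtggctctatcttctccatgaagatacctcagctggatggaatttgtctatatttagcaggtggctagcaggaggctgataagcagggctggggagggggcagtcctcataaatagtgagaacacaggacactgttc
Cbln4: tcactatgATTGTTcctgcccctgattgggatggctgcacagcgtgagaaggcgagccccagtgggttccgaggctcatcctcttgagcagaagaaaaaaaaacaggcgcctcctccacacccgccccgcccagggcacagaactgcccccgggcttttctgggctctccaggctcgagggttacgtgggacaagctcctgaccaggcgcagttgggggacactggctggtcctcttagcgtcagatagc
Etd: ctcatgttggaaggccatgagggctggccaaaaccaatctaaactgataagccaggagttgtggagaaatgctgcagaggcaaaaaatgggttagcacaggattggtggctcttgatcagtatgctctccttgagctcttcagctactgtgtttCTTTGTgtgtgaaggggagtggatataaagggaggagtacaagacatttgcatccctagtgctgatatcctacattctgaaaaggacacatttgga
Each of the 3 held 1 match, and each was to a SOX motif. Mybpc3 had ACAAAG 232 to 227 bases before the start, Etd had ACAAAG on the opposite strand (CTTTGT) 96 to 91 bases before it, and Cbln4 had AACAAT on the opposite strand (ATTGTT) 242 to 237 bases before it. No letters of the NR5A1, GATA or TCF/LEF motifs were found in these windows. Of 32851 promoters of the same length, 24.0% held at least 1 of the SOX motifs, 4.08% the NR5A1, 9.99% the GATA and 3.21% the TCF/LEF letters. A match to 6 letters is a description of the sequence and not a binding site. Sel1l3, 3110035E14Rik, AF529169, Mafa and Pnmt had no entry that matched.

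In all 8 transcripts the highest cKO library lay below the lowest WT library, a separation in this direction that 10.9% of all tested genes showed. The mean fall was 5.31-fold for Mybpc3, the smallest, and 18.9-fold for 3110035E14Rik, the largest, and 0.321% of the tested genes fell at least 5-fold. The lowest WT value exceeded the highest cKO value by 4.06-fold in Mybpc3 and by 9.68-fold in 3110035E14Rik, with the other 6 between. The median log2 fold change was -3.08 over the 8 and 0.00 over all tested genes. Since large falls were the ground for picking them, nothing is read from these counts. Of 16862 tested genes with at least 1 CPM in WT, 46 were separated and fell at least as far as Mybpc3, and 33 of these 46 are protein-coding.

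**Figure D1:**
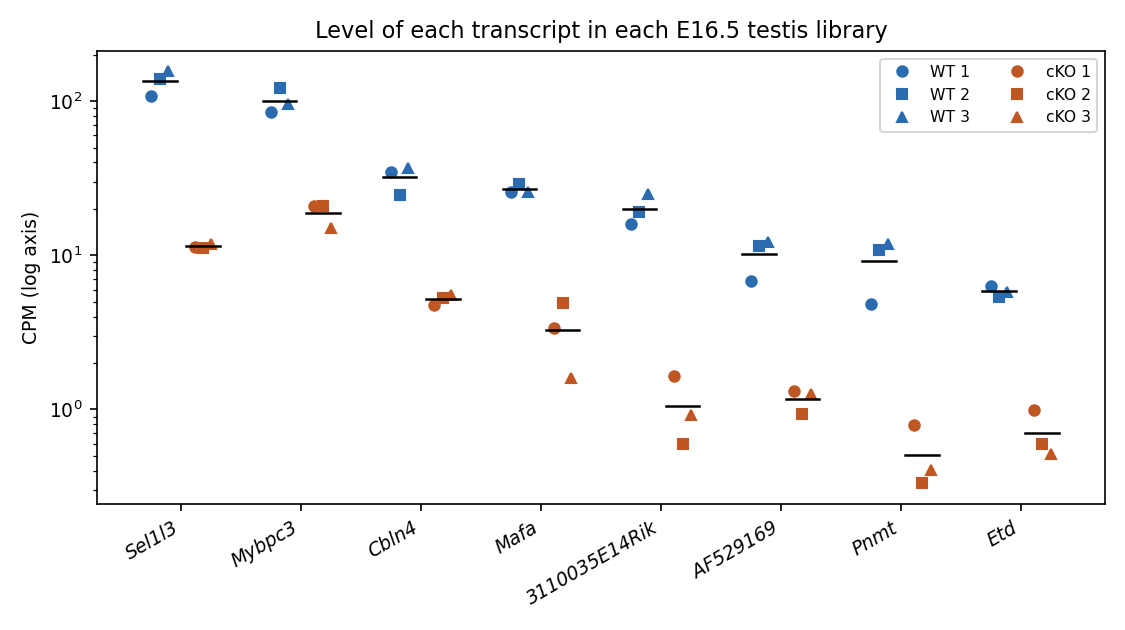
CPM on a log axis for each of the 8 transcripts in the 3 WT (blue) and 3 cKO (orange) libraries, with a black bar at each group mean. No cKO point reaches the lowest WT point of the same transcript, and the cKO points of Sel1l3 lie closest together, at 11.2 to 11.9 CPM.

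Cbln4 lies at positions 183311751 to 183321040 on chromosome 2, minus strand (these and the following gene positions are those of the count table, in the C57BL/6NJ assembly). It stood at 34.6, 24.7 and 37.0 CPM in WT libraries 1, 2 and 3 and at 4.74, 5.25 and 5.52 CPM in cKO libraries 1, 2 and 3. The cKO libraries were close together while WT library 2 lay below the other two WT libraries, and the groups did not overlap. The means were 32.1 ± 6.50 and 5.17 ± 0.396 CPM (SD, n = 3 each), a 6.21-fold fall (log2 fold change -2.63, SE 0.202).

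Pnmt, at positions 104007830 to 104009561 on chromosome 11, plus strand, had 4.85, 10.8 and 11.9 CPM in WT and 0.790, 0.332 and 0.403 CPM in cKO. The cKO values rest on 12, 5 and 7 counts. WT library 1 was less than 0.5 times the other two, which made Pnmt the most variable of the 8 in WT (coefficient of variation 41.3%), and still lay 6.14-fold above the highest cKO library. From 9.20 ± 3.80 to 0.508 ± 0.247 CPM the fall was 18.1-fold (log2 fold change -4.16, SE 0.467).

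Mafa is drawn in the files as a single block of 1080 bases on chromosome 15 (78608072 to 78609151, minus strand), as long as its gene length, so the model holds no intron. Its WT libraries were the most alike of the 8, at 25.9, 29.1 and 25.6 CPM (coefficient of variation 7.32%). The cKO libraries differed among themselves, with 3.36, 4.92 and 1.61 CPM. Library 2 was the highest and library 3 the lowest, on 74 and 28 counts. The mean went from 26.9 ± 1.97 to 3.30 ± 1.66 CPM, 8.15-fold lower (log2 fold change -3.04, SE 0.316).

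Mybpc3 (chromosome 2, 95689011 to 95707370, plus strand) kept the largest share of its WT level, 18.8%. Its values were 85.3, 121 and 95.3 CPM in WT and 20.8, 21.01 and 14.95 CPM in cKO. The highest and lowest libraries of each group differed by about the same proportion, and no cKO library came near the WT range. The means were 101 ± 18.4 and 18.9 ± 3.44 CPM (log2 fold change -2.41, SE 0.18).

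Sel1l3 spans 54290203 to 54397733 on chromosome 5, minus strand. It had 108, 138 and 156 CPM in WT and 11.4, 11.2 and 11.9 CPM in cKO. The cKO libraries were nearly equal (coefficient of variation 3.27%) although WT library 3 was well above WT library 1. The fall was 11.7-fold (log2 fold change -3.54, SE 0.161), which left 8.57% of the WT level.

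3110035E14Rik (chromosome 1, 7169045 to 7197693, plus strand) had 15.9, 19.1 and 24.8 CPM in WT and 1.65, 0.598 and 0.920 CPM in cKO, on 25, 9 and 16 counts. This is the largest fall of the 8, to 5.29% of the WT level (log2 fold change -4.23, SE 0.341). The processed transcript 2610203C22Rik covers the same stretch on the opposite strand, at 1.38 CPM in WT and 1.02 CPM in cKO (log2 fold change -0.43, edgeR adjusted p = 0.720). The strand setting of the counts is not given, so how reads from stretches shared by the pair were assigned is not known. The level left in cKO for 3110035E14Rik was 1.05 ± 0.537 CPM, and whether it holds reads of this partner was not tested.

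AF529169 (chromosome 9, 93027689 to 93065434, minus strand) had 6.85, 11.4 and 12.3 CPM in WT and 1.32, 0.931 and 1.27 CPM in cKO, on 20, 14 and 22 counts. WT library 1 was again the lowest of its group, and lay 5.20-fold above the highest cKO library. The log2 fold change was -3.11 (SE 0.33).

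Etd (X chromosome, 49863246 to 49871591, plus strand) had 6.35, 5.39 and 5.74 CPM in WT and 0.988, 0.598 and 0.518 CPM in cKO, on 15, 9 and 9 counts. The WT libraries varied little (coefficient of variation 8.32%). The log2 fold change was -3.05 (SE 0.372). Etd was the only X-linked gene among them, and no 2 of the others share a chromosome but Mybpc3 and Cbln4, both on chromosome 2.

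Per length, in the deposited FPKM (fragments scaled by gene length and by a rescaled library total, 0.968 to 1.05 times the summed counts), the levels of the 8 can be set beside each other. In WT, Mafa (24.6 ± 1.88) and Mybpc3 (23.9 ± 4.47) were highest and did not differ beyond their spread. Sel1l3 (13.5 ± 2.48), Etd (12.0 ± 0.942) and Cbln4 (10.9 ± 2.19) followed and overlapped each other. Pnmt (7.89 ± 3.28) overlapped both Cbln4 and 3110035E14Rik (6.06 ± 1.38), and AF529169 was lowest at 1.39 ± 0.402 FPKM. Mafa exceeded 86.1% and AF529169 24.6% of all tested genes in WT by FPKM. In cKO, Mybpc3 (4.51 ± 0.819), Mafa (3.03 ± 1.52), Cbln4 (1.77 ± 0.137), Etd (1.45 ± 0.520) and Sel1l3 (1.16 ± 0.0378) stayed above 1 FPKM on average, and Pnmt (0.437 ± 0.211), 3110035E14Rik (0.321 ± 0.163) and AF529169 (0.160 ± 0.0285) were below it.

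The libraries did not rank the same way for all 8. In WT, library 1 was the lowest for 5 and library 3 the highest for 5. In cKO, library 1 was the highest for 4, library 2 for 2 and library 3 for 2. The summed Sertoli cell markers were 3704, 4763 and 4055 CPM in WT libraries 1, 2 and 3 and 1925, 2121 and 1590 CPM in cKO, so WT library 1 was the lowest there too. That sum was 2.22-fold lower in cKO, less than any of the 8 transcripts. Set against the marker sum of its own library, each transcript was still lower in every cKO library than in every WT library. That follows largely from the picking of the 8 for large falls, and nothing is read from it. Against that sum the falls ran from 2.39-fold (Mybpc3) to 8.41-fold (3110035E14Rik). Cbln4 was at 2.81, AF529169 at 3.79, Etd at 3.80, Mafa at 3.83, Sel1l3 at 5.18 and Pnmt at 7.95-fold. This denominator was added after the data were seen and itself fell in cKO. Its largest parts in cKO were Clu (507 CPM), Gata4 (314 CPM), Nr5a1 (241 CPM) and Wt1 (200 CPM), of which only Clu was called lower. The folds against it thus do not compare a transcript with the markers that fell most, and sums of other markers were not tested. Of the 20 markers, 5 (Hsd17b3, Fshr, Sox8, Defb19 and Amh) fell at least as far as Mybpc3.

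**Figure D2:**
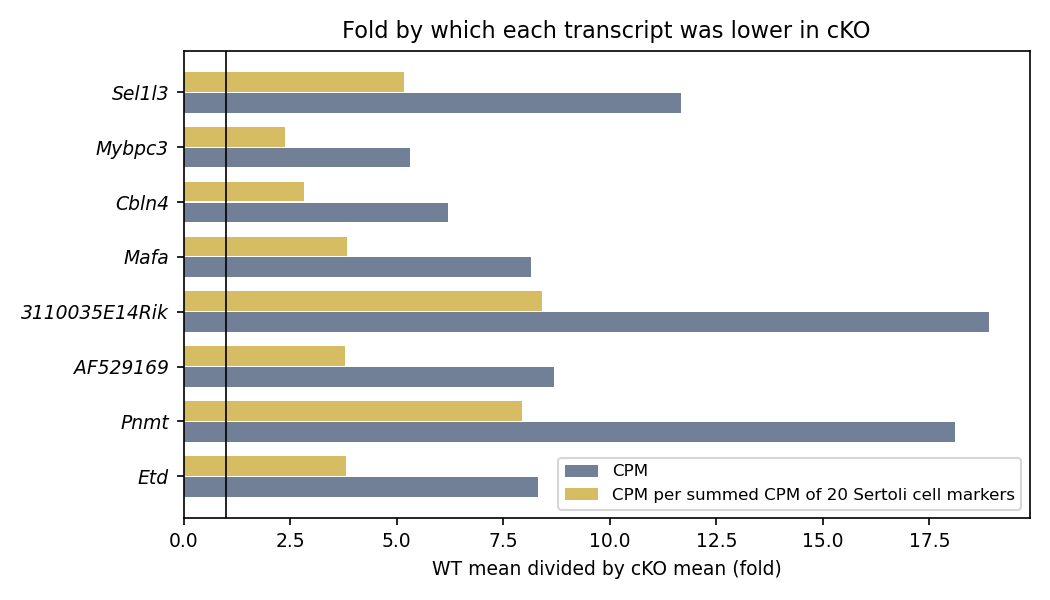
Bars give the WT mean divided by the cKO mean for each transcript, from CPM (grey) and from CPM divided by the summed CPM of 20 Sertoli cell markers of the same library (yellow), with a line at 1. All 8 grey bars exceed 5 and all 8 yellow bars exceed 2, and the order from Mybpc3 to 3110035E14Rik at the extremes is kept. The 8 were picked for large falls, so bars above 1 follow largely from the picking.

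Some relatives of the 8 by protein family were looked at beside them. Of the 14 reported here, 13 were matched and 8 were tested, with 0 lower and 0 higher by edgeR (background 1.84% lower and 1.5% higher), against 2 lower and 1 higher with unadjusted p under 0.05. DESeq2 called 1 of the 8 tested, Cbln2, lower and 0 higher, and limma-voom called 0 in either direction. Maf stood at 69.7 ± 6.41 and 91.7 ± 5.35 CPM in WT and cKO (0.39, edgeR adjusted p = 0.115). By FPKM, Mafa was above Maf in WT (24.6 against 8.37) and below it in cKO (3.03 against 11.04).

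Among the cerebellins, Cbln1 was the most abundant per length, at 54.0 FPKM in WT and 42.1 FPKM in cKO (log2 fold change -0.37, edgeR adjusted p = 0.229). Cbln2 stood at 8.43 ± 3.00 and 2.99 ± 2.11 CPM (-1.48, edgeR adjusted p = 0.128, called lower in 4 of 12 alternative fits, among them the one without cKO library 3). Cbln3 stood at 4.55 ± 0.888 and 4.41 ± 1.52 CPM. Sel1l, the adaptor of the ubiquitin ligase Syvn1, was at 262 ± 15.7 CPM in WT and 285 ± 3.57 CPM in cKO (0.12, edgeR adjusted p = 0.658), and by FPKM exceeded Sel1l3 in both groups. Of the myosin-binding relatives, Mybpc1 (0.60, edgeR adjusted p = 0.348), Mybpc2 (0.01, edgeR adjusted p = 0.993) and Mybphl (0.75, edgeR adjusted p = 0.412) were not called, and each was below 3 FPKM in WT against 23.9 FPKM for Mybpc3. Sel1l2, Mybph, Nrl, Nnmt and Inmt had too few counts to be tested. Whether a transcript of the 8 changed differently from its relatives was not tested, since the former were picked for their change.

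**Figure D3:**
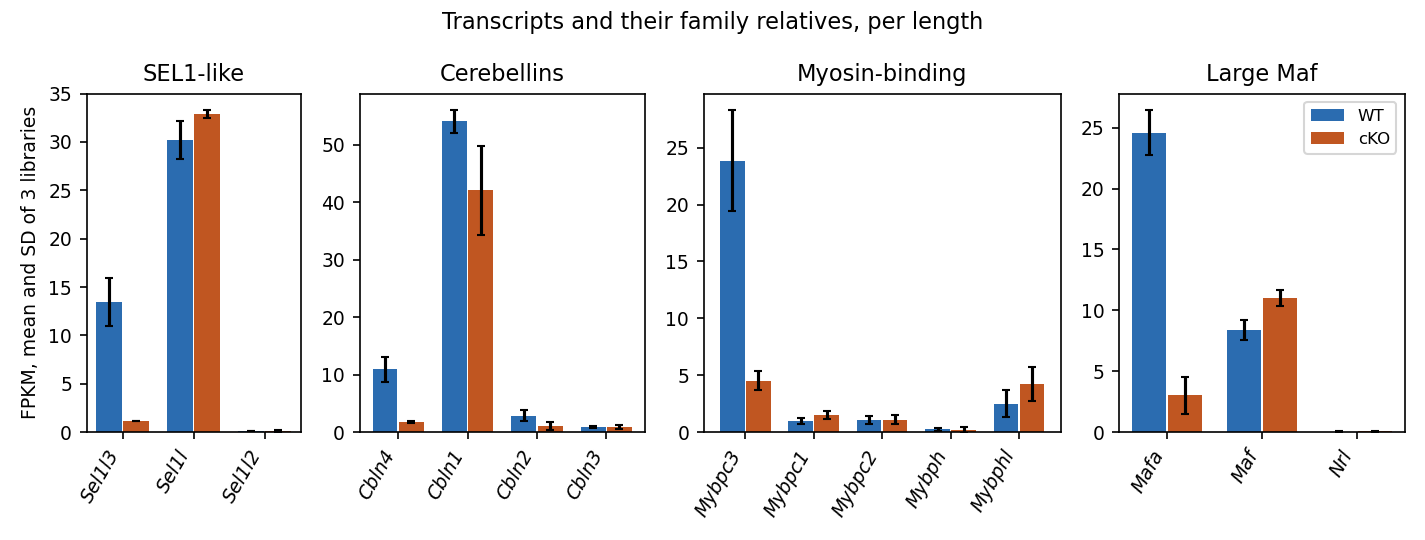
Mean FPKM with SD of 3 libraries for 4 of the transcripts and their relatives in WT (blue) and cKO (orange), 1 panel per protein family, with a separate axis from 0 in each panel. The orange bar is far below the blue one for Sel1l3, Cbln4, Mybpc3 and Mafa, while Cbln1 and Sel1l keep high bars in both groups and Maf is taller in cKO.

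Genes that work elsewhere in the body with Cbln4, Pnmt, Mafa, Mybpc3 or Sel1l, the relative of Sel1l3, were looked at next. No partners were listed for 3110035E14Rik, AF529169 and Etd. Counting the relatives, 57 of the tested genes of the 6 related lists are reported here. Of these, edgeR called 2 lower and 3 higher (6 lower and 7 higher with unadjusted p under 0.05). Over all tested genes, 1.84% were lower and 1.5% higher by edgeR. The median log2 fold change of the 57 was -0.02, against 0.00 for all tested genes. The 2 lower genes were Derl3 and Tnni3, and the 3 higher were Maoa, Maob and Nkx6-1. The lists name where each partner is known to act and say nothing of a partnership in the testis.

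Of 9 tested genes of catecholamine synthesis, storage and breakdown, edgeR called 2 higher and 0 lower, as did DESeq2 and limma-voom (3 higher and 0 lower with unadjusted p under 0.05). Both are monoamine oxidases, which break catecholamines down. Maob had 17.2, 27.7 and 29.1 CPM in WT and 70.6, 40.0 and 56.6 CPM in cKO (log2 fold change 1.18, SE 0.235, edgeR adjusted p = 0.0191), with no overlap. Maoa had 48.0, 59.4 and 47.5 CPM in WT and 83.4, 74.7 and 79.8 CPM in cKO (0.62, SE 0.13, edgeR adjusted p = 0.0251). Both calls were lost without WT library 1, WT library 3 or cKO library 3, and that of Maob also without WT library 2 (edgeR adjusted p up to 0.157 for Maoa and 0.0881 for Maob). Of the enzymes that act before Pnmt, named after their values were seen, Th was at 0.885 ± 0.307 CPM in WT and 0.617 ± 0.170 CPM in cKO, Ddc at 5.83 ± 0.321 and 6.06 ± 1.998 CPM, and Dbh had 2 to 9 counts per library and was not tested. Pnmt in WT was well above Th and Dbh, at 7.89 FPKM against 0.370 and 0.114 FPKM.

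Adrenal tissue expresses Pnmt, so its other genes were looked at. Of 5 adrenal cortex markers 4 were matched and 3 tested, and none of them was called by any of edgeR, DESeq2 and limma-voom or had an unadjusted p under 0.05 (0 of 3), with sums of 26.3 to 48.7 CPM in WT and 28.6 to 56.4 CPM in cKO. WT library 1 had the highest adrenal sum and the lowest Pnmt of its group, but Cyp11b1 held most of that sum (41.1 of 48.7 CPM). Akr1b7 ran in the order of Pnmt in WT, at 4.92, 5.85 and 7.24 CPM in libraries 1, 2 and 3. It did not in cKO, at 5.86, 7.31 and 2.82 CPM against 0.790, 0.332 and 0.403 CPM for Pnmt. Mc2r was highest in WT library 3 (4.25 CPM). These markers are of the cortex, while Pnmt acts in the medulla. Of 7 neuron markers, Tubb3 was called lower by edgeR (log2 fold change -1.48, edgeR adjusted p = 0.00229) against 6 uncalled ones, with sums of 65.9 to 79.3 CPM in WT and 44.5 to 51.0 CPM in cKO and none at 0. The part of either cell type in the falls of Pnmt and Cbln4 was not tested.

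The 4 tested beta cell genes held 1 higher and 0 lower gene, by edgeR as by DESeq2 and limma-voom and also with unadjusted p under 0.05. Nkx6-1, a homeobox factor, had 3 counts over all WT libraries and 162 over all cKO libraries, a ratio of 54.2 (95% exact binomial interval 18.2 to 266, counting error only; edgeR adjusted p = 0.00089). Ins2 had 11, 10 and 4 counts in WT and 0, 0 and 1 in cKO, and was too rare to be tested. Pdx1, Ins1, Iapp, Slc30a8 and Neurod1 were too rare as well, and G6pc2 was not called (0.30, edgeR adjusted p = 0.863). Both insulin genes were thus at or near the counting limit in testes where Mafa was at 24.6 FPKM.

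Among 14 tested sarcomere genes 1 was lower and none was higher by edgeR (2 lower and 1 higher with unadjusted p under 0.05; 2 lower by DESeq2 and 1 by limma-voom). The called gene was Tnni3, the cardiac troponin I gene, at 37.8, 39.3 and 31.9 CPM in WT and 17.8, 20.8 and 12.8 CPM in cKO (log2 fold change -1.09, SE 0.189, edgeR adjusted p = 0.00889). Without WT library 1 or WT library 2 its call was lost (edgeR adjusted p up to 0.0546). The sum of the list was 231 to 292 CPM in WT and 157 to 221 CPM in cKO, and 12 of the 14 fold changes were negative. The myosins of heart muscle, named after their values were seen, stood near 0, Myh6 at -0.03 (SE 0.262) and Myh7 at -0.04 (SE 0.139). Myl2 and Myl3, the ventricular light chains, were too rare to be tested, and Tnni1 stood at -0.24 (edgeR adjusted p = 0.580).

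Of 15 genes of degradation from the endoplasmic reticulum 1 was lower and 0 were higher, by edgeR as by DESeq2 and limma-voom and also with unadjusted p under 0.05. This was Derl3, one of the derlins, which take part in moving misfolded proteins out of that compartment. It had 11.8, 10.6 and 15.1 CPM in WT and 4.54, 2.93 and 4.66 CPM in cKO (-1.63 ± 0.26 (SE) on the log2 scale, edgeR adjusted p = 0.00531), and was called in all 12 alternative fits. The abundant chaperone Hspa5 (-0.13, edgeR adjusted p = 0.736) and Vcp (0.19, edgeR adjusted p = 0.644) were not called, nor were Derl1 (0.12) and Derl2 (0.01). Among 7 receptors and partners of cerebellins, edgeR called 0, as did DESeq2 and limma-voom (1 lower and 1 higher with an unadjusted p under 0.05). Neo1, the most abundant, stood at 348 ± 55.0 CPM in WT and 305 ± 20.5 CPM in cKO, and Nrxn2 at 28.9 ± 0.540 and 27.0 ± 3.71 CPM.

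**Figure D4:**
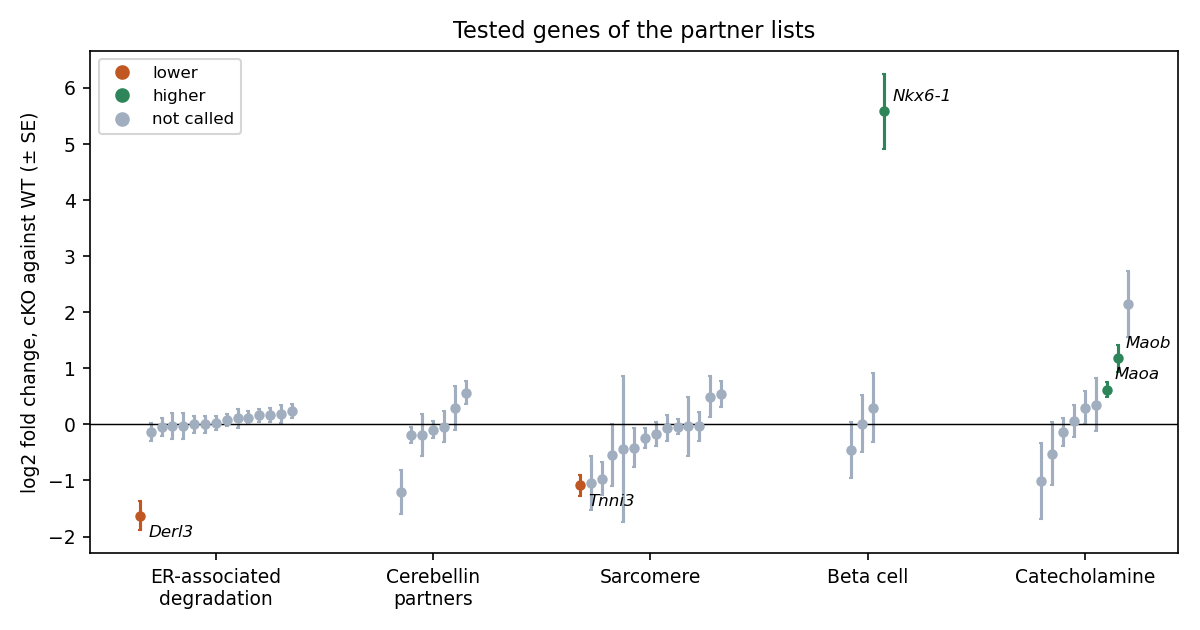
Log2 fold change of cKO against WT with its SE for each tested gene of 5 lists of partners, ordered by value within a list, in orange where lower, green where higher and grey where not called at an edgeR adjusted p under 0.05. Most points lie within 1 of the zero line; Derl3 and Tnni3 are the orange points, and Nkx6-1, Maoa and Maob the green ones.

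The chromosomal surroundings were compared through the 2 nearest tested genes on each side of each transcript, 32 genes in all. Of these, edgeR called 5 lower and 0 higher (10 lower and 1 higher with unadjusted p under 0.05; DESeq2 called 7 lower and 0 higher, limma-voom 4 and 0), against a background of 1.84% lower. Their median log2 fold change was -0.25, and 22 of the 32 were negative. The lowest value, -2.22, belonged to the unnamed predicted locus 17840 bases beyond Etd on the same strand, at 2.73 ± 0.892 CPM in WT and 0.585 ± 0.350 CPM in cKO (SE 0.551, edgeR adjusted p = 0.0547, called lower in 4 of 12 alternative fits, among them the one without cKO library 2). None of the 32 fell as far as the transcript it flanks, but the transcripts were picked for large falls, so nothing is read from this.

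Of the 5, 3 surround 3110035E14Rik. Adhfe1, a mitochondrial enzyme gene 23767 bases away, had 8.65, 9.38 and 10.4 CPM in WT and 5.005, 4.32 and 4.14 CPM in cKO (log2 fold change -1.08, SE 0.229, edgeR adjusted p = 0.0266). Mybl1, which encodes a regulator of male meiosis and lies 43429 bases away on the other side, had 58.6, 56.3 and 54.3 CPM in WT and 29.96, 34.7 and 28.4 CPM in cKO (-0.86, SE 0.13, edgeR adjusted p = 0.00362). Beyond it Vcpip1, a deubiquitinase gene, had 144, 150 and 151 CPM in WT and 104, 94.3 and 86.1 CPM in cKO (-0.65, SE 0.115, edgeR adjusted p = 0.0103). The groups did not overlap in any of the 3, while the fourth neighbour, Rrs1, stood at 22.5 ± 0.923 and 22.3 ± 5.31 CPM (-0.01, edgeR adjusted p = 0.976). The call of Mybl1 was kept in all 12 alternative fits, that of Adhfe1 was lost in 4 and that of Vcpip1 in 3, in each case with 1 library left out (WT library 2, WT library 3 or cKO library 3 for both, and WT library 1 for Adhfe1).

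The other 2 lower neighbours were Erbb2 and Smim20. Erbb2, a receptor tyrosine kinase gene 30573 bases from Pnmt, had 158, 187 and 172 CPM in WT and 92.2, 104 and 88.2 CPM in cKO (-0.86 ± 0.121 (SE) on the log2 scale, edgeR adjusted p = 0.00247), and was called in all 12 alternative fits. Pgap3, only 496 bases beyond Pnmt on the opposite strand, stood at 20.97 ± 1.49 and 15.9 ± 1.10 CPM (-0.40, edgeR adjusted p = 0.238), and Stard3 on the other side at -0.22 (edgeR adjusted p = 0.477). Smim20, 62138 bases from Sel1l3, had a mean of 27.7 ± 0.624 CPM in WT and 18.3 ± 0.918 CPM in cKO (-0.60, SE 0.141, edgeR adjusted p = 0.0443), a call lost in 7 of 12 alternative fits, among them limma-voom and those without WT library 1, 2 or 3 or cKO library 2 or 3 (edgeR adjusted p up to 0.189). Its other neighbour Slc34a2 stood at -0.86 (edgeR adjusted p = 0.200).

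The nearest tested genes of the remaining transcripts were not called. Madd lies 843 bases beyond Mybpc3 on the opposite strand and stood at 0.05 (edgeR adjusted p = 0.913), and Spi1 on its other side at 0.41 (edgeR adjusted p = 0.573). Mafa lies between Rhpn1 (-0.28, edgeR adjusted p = 0.605) and Zc3h3 (-0.82, SE 0.62, edgeR adjusted p = 0.573). The tested genes nearest to Cbln4 were Fam210b, 354588 bases away (-0.20, edgeR adjusted p = 0.638), and Dok5, 1247159 bases away (-1.003, SE 0.519, edgeR adjusted p = 0.390). Genes that were not tested may lie between. AF529169 has Tmed3 81965 bases away (0.26, edgeR adjusted p = 0.386) and a predicted locus 983537 bases away on the other side. Mospd1 is the nearest named gene to Etd among those tested (0.07, edgeR adjusted p = 0.915).

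**Figure D5:**
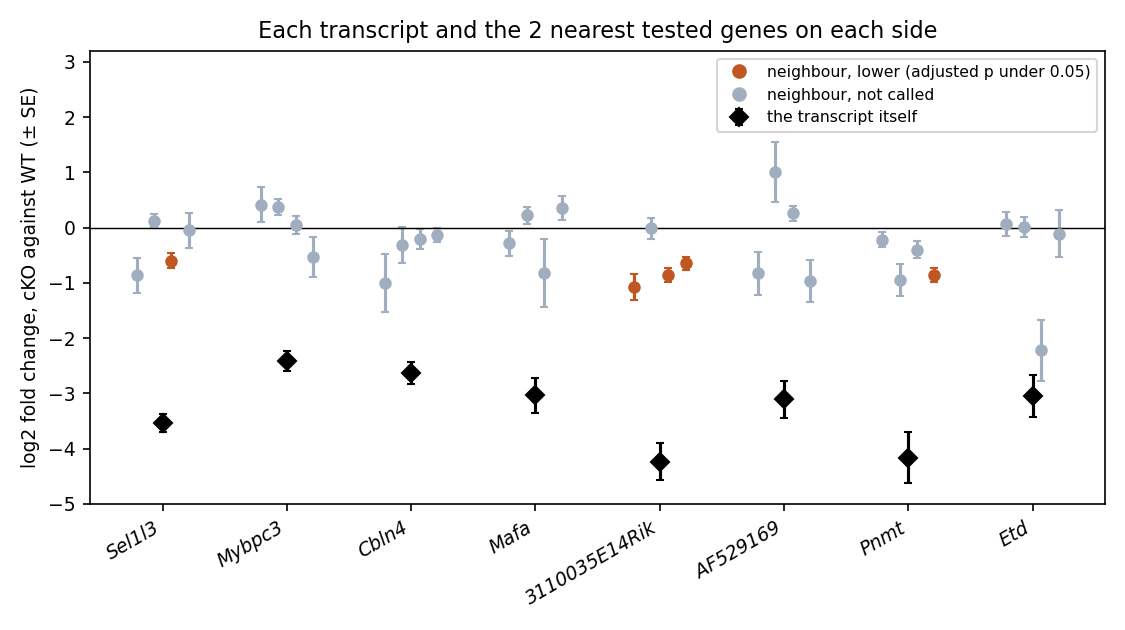
Log2 fold change of cKO against WT with its SE for each of the 8 transcripts (black diamonds) and the 2 nearest tested genes on each side (circles, from lower coordinates on the left to higher on the right; orange where lower at an edgeR adjusted p under 0.05). The diamonds, picked for their falls, lie between -4.23 and -2.41 and below all their circles. Of the 5 orange circles, 3 flank 3110035E14Rik.

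For each transcript the 3 genes with the most similar profile were taken from 16783 tested genes that reached 1 CPM on average. Likeness was the root mean square difference of log2(CPM + 0.1) over the 6 libraries, each gene centred on its own mean, so it mainly reflects the size of the fall. The closest match of all was that of Mybpc3, with the prostaglandin D synthase gene Ptgds (difference 0.148), Cst9 (0.155) and Shbg, the sex hormone-binding globulin gene (0.170). Ptgds went from 129 ± 19.6 to 24.9 ± 7.96 CPM and Shbg from 32.8 ± 5.73 to 5.32 ± 1.62 CPM. Etd was nearest to Sox8 (0.225), Shisa6 (0.233) and the fatty acid elongase gene Elovl2 (0.234), and Mafa to Padi2 (0.249), Sox8 (0.292) and Shbg (0.340). Cbln4 was nearest to A730049H05Rik (0.212), Defb19 (0.222) and Miox (0.260), and AF529169 to Elovl2 (0.274), Defb19 (0.316) and A730049H05Rik (0.328).

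The deepest falls had less close matches. Sel1l3 was nearest to a predicted locus without a gene name (0.283), Hsd17b3 (0.340) and Elovl2 (0.424). 3110035E14Rik was nearest to Frem3 (0.418), Hsd17b3 (0.578) and Fshr (0.732), and Pnmt to Frem3 (0.469), Hsd17b3 (0.577) and Shisa6 (0.662). Hsd17b3, which encodes the enzyme that makes testosterone from androstenedione, thus appears beside 3 of the 8, at 131 ± 16.7 CPM in WT and 13.2 ± 3.81 CPM in cKO. Padi2, beside Mafa, went from 59.0 ± 1.82 to 8.52 ± 3.27 CPM, and Frem3 from 3.12 ± 0.869 to 0.143 ± 0.124 CPM. Among the 8 themselves, the closest pairs were Sel1l3 with AF529169 (0.317) and 3110035E14Rik with Pnmt (0.318), and the farthest was Mybpc3 with 3110035E14Rik (1.01).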

How the data were processed

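Counts per gene for 6 libraries (3 cKO, 3 WT) are whole numbers, not normalised, as deposited. FPKM values, per the file headers, were computed by the authors for each library. Per the submitters' processing notes HISAT2 2.0.5 and build GRCm38 were used; the counting tool and its strand setting are not stated there. Identifiers and coordinates in the table are of the C57BL/6NJ strain annotation, and of 7 members found in GENCODE M21 (GRCm38) 0 had the same start. Rows without a gene name held 0.713 to 0.961% of the counts and were kept as loci. Genes passing filterByExpr (18383) were fitted with edgeR 4.0.16 in R 4.3.3 (TMM, glmQLFit, glmQLFTest, group as the one term), and p-values were adjusted by Benjamini-Hochberg over all 18383, with a threshold of 0.05. CPM uses TMM-scaled totals, and SE is the log2 fold change over the square root of F. Group values are mean ± SD over 3 libraries.

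The members and gene lists were chosen with earlier results of these data known. Genes named are the 8 members, tested relatives, called genes and the 2 most abundant of each list of partners, called, overlapping or nearest neighbours, and the 3 nearest profiles. The procedure was tested on simulated data. Alternatives were DESeq2 1.42.0, limma-voom (limma 3.58.1), other scalings, no filter, a replicate block and each library left out. Replicates of a group differed by more than sampling noise (12.2 to 37.4 times the chi-square that noise gives), so each counted as 1 sample. Protein sequences were not used here, and some genes of the lists are not reported here and are left out of the lists' counts and sums.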

Additional observations from a re-analysis of the deposited data

How the results depend on the processing

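The levels of all 8 transcripts stayed lower in cKO under every alternative tried. Of 96 recomputed log2 ratios 81 moved by less than the spread between replicates. Of the rest, 7 came from adding 1 or 0.1 to FPKM, which compresses low values (AF529169 -1.04 with 1 and -2.52 with 0.1), and 8 from dividing by the summed Sertoli cell markers, an alternative chosen after seeing the data (from -3.07 for 3110035E14Rik to -1.26 for Mybpc3). With 1 library left out, the log2 ratio ran from -4.72 to -3.96 for 3110035E14Rik, from -4.65 to -3.95 for Pnmt, from -3.44 to -2.70 for Mafa and from -2.51 to -2.25 for Mybpc3. Of the 24 nearest places (3 for each transcript, held by 14 distinct genes), 16 were held by a gene also among the 3 nearest to that transcript on the log2(FPKM + 0.1) scale.

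Counts of calls depended on the tool and on single libraries. Over all genes, 339 lower and 276 higher became 574 and 527 with the DESeq2 Wald test and 651 and 613 without the low-count filter, and ran from 167 to 399 lower and from 105 to 342 higher with 1 library left out. Among related genes, 2 lower became 4 with the DESeq2 Wald test, 4 without the filter and 4 with a replicate block. With 1 library left out they ran from 1 to 3 lower and from 1 to 3 higher. Lower neighbours ran from 2 to 5 with 1 library left out, and were 4 to 7 under the other alternatives. The replicate block gave 372 lower and 324 higher genes. Deviations of same-numbered libraries correlated at 0.02, 0.18 and 0.03, so the numbers were not taken to pair the samples. cKO values of Pnmt, Etd, AF529169 and 3110035E14Rik rest on 5 to 25 counts per library, which limits their folds. The cause of the changed counts was not tested.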
